A study of Sus scrofa with 63 samples.

Results

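The glucocorticoid receptor gene NR3C1, the gene of the hormone-activating enzyme HSD11B1 and the receptor target genes FKBP5, TSC22D3 and GLUL were followed through liver development in pigs. Every probe-set annotated to these 5 genes was taken, which gave 12 of the 23935 probe-sets that are not controls, and 5 of the 6765 genes with exactly 1 symbol. NR3C1 had 4 probe-sets, GLUL 3, FKBP5 and TSC22D3 2 each, and HSD11B1 1. The probe-set with the highest mean over all arrays stands for its gene and is called the first, and the next one is called the second.

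Liver RNA was hybridised to 63 Affymetrix porcine arrays, 1 per animal. The stages were 94 days post conception (94 dpc, 16 fetuses), 1 day after birth (1 dpn, 16 piglets), 28 dpn (15 piglets) and 188 dpn (16 pigs). All animals were German Landrace HP offspring, whose dams ate a high protein diet during gestation. All values concern age within HP offspring, and arrays from dams fed an adequate protein diet are not analysed here. Fetuses were delivered surgically in an experiment of their own, the light and the heavy sib were chosen at 94 dpc and 1 dpn only, piglets kept beyond the first days were fostered by other sows, and the males among them were castrated. The methods state an overnight fast before sampling at the 2 later stages only, and the agent or method of killing differed between 94 dpc, 1 dpn and the later stages. These conditions went with age and cannot be told apart from it, and no hormone level was used here. Animals were taken as sib pairs, and sex, mother, pair and weight are in no label, so the animals are not all independent and the p-values do not allow for it.

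Cortisol, the main glucocorticoid of the pig, enters cells and binds a receptor that heat shock proteins and co-chaperones hold ready in the cytosol. The bound receptor moves to the nucleus and raises or lowers the transcription of its target genes, in liver among them genes of gluconeogenesis and amino acid breakdown. Cortisol of the fetus is known to rise towards birth in pigs and to prepare the liver for life outside the uterus. HSD11B1 is the reductase that turns inert cortisone back into cortisol inside the hepatocyte. FKBP5 is a co-chaperone that lowers the hormone affinity of the receptor and is itself induced by it, TSC22D3 is the glucocorticoid-induced leucine zipper, and GLUL is glutamine synthetase, which joins ammonia to glutamate in the hepatocytes around the central vein.

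The values are log2 signals, so a difference of 1 is a 2-fold difference. All 9 hepatocyte markers listed were above background on most arrays of every stage, where background is the level under which 95% of 23 control probe-sets with no target lie, on average 5.64 to 6.10 by stage. Array medians were lower at later stages, on average 7.38, 7.23, 6.83 and 6.71 in order of age. Accordingly the median change of all probe-sets tested was −0.10 at 1 dpn against 94 dpc, −0.14 at 28 dpn against 1 dpn and −0.07 at 188 dpn against 28 dpn, and −0.02, 0.02 and 0.00 after quantile normalization. Among the probe-sets called, 40.2%, 40.1% and 35.4% were higher at the later stage, against 48.2%, 51.5% and 47.3% after quantile normalization. Labelling also differed: the 3′ minus 5′ difference of actin averaged 2.44, 1.59, 3.66 and 4.10 in order of age. For RNAs added before labelling it averaged 0.15, 0.94, 1.29 and 0.99, and the arrays of 1 dpn (0.58 to 1.22) and 94 dpc (0.01 to 0.26) did not overlap in it. With that difference as a covariate, 388 probe-sets in place of 7309 passed at 1 dpn against 94 dpc, and none of the 5 genes did. With the difference of actin as a covariate, added after the data were seen, 4687 in place of 9378 passed at 28 dpn against 1 dpn, of the 5 genes only HSD11B1. Actin ranged from 0.75 to 3.16 at 1 dpn and from 3.15 to 4.02 at 28 dpn, with hardly any overlap. Both covariates thus nearly follow stage in these comparisons, and the loss of calls cannot be assigned to labelling or to age. The array of 94 dpc with the lowest correlation to its stage (replicate 6, r = 0.89) changed the call of none of the 5 genes when it was left out.

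A probe-set was tested between 2 stages if, in either of them, 50% or more of the arrays had it above their own median. The p-values of limma were adjusted by the Benjamini-Hochberg method over all probe-sets tested, and an adjusted p under 0.05 counted as a call. At 1 dpn against 94 dpc 4 of the 5 genes were called, where 56.9% of all 12842 probe-sets tested were. The count at 28 dpn against 1 dpn was 4 of 5, beside 71.7% of 13081, and at 188 dpn against 28 dpn 3 of 5, beside 34.7% of 12421. Between stages that are not adjacent, 5 of 5 were called at 28 dpn against 94 dpc (80.2% of all), 4 at 188 dpn against 94 dpc (80.1%) and 4 at 188 dpn against 1 dpn (73.6%). With so many probe-sets called, these counts do not set the 5 genes apart from the rest, and the sizes and the order of the levels are given instead.

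**Figure D1:**
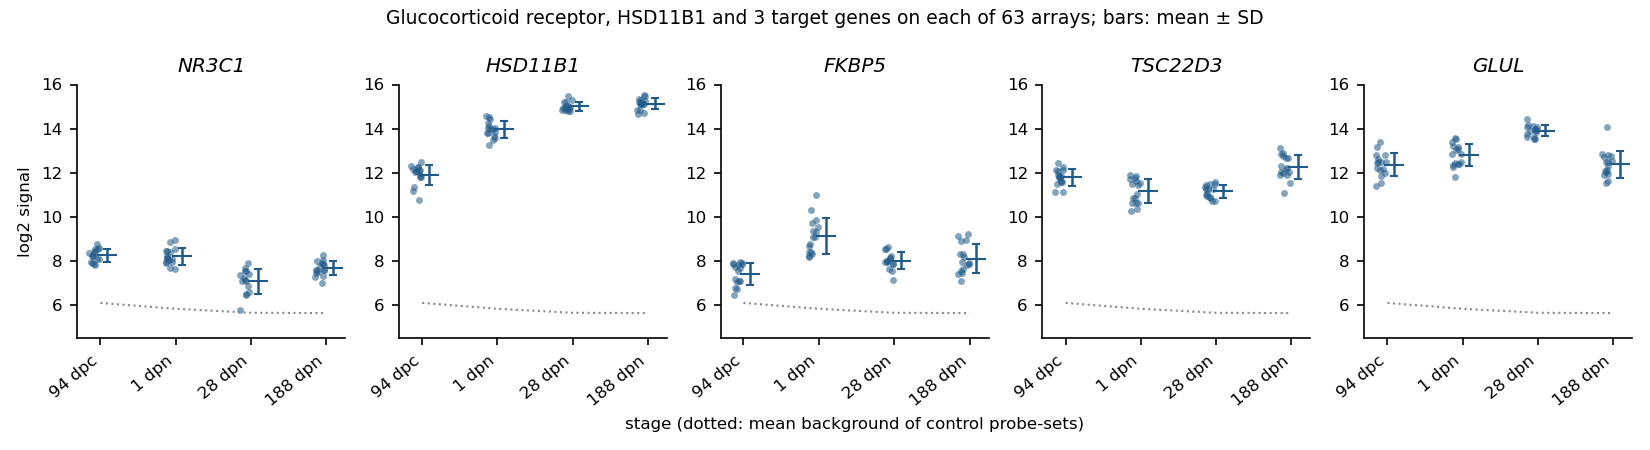
Log2 signal (y axis) of the first probe-set of each gene on every array, by stage (x axis), with the mean ± SD beside the points and the mean background as a dotted line. HSD11B1 climbed over the first 3 stages and levelled, NR3C1 was lowest at 28 dpn, FKBP5 was highest and most spread at 1 dpn, TSC22D3 was highest at 188 dpn and GLUL at 28 dpn. Signals of different probe-sets are not comparable as amounts.

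The receptor itself was lowest at 28 dpn on its first probe-set, in RNA of whole liver, where fewer cells of a type and less RNA per cell cannot be told apart. On its first probe-set NR3C1 ranged from 7.84 to 8.77 with a median of 8.26 at 94 dpc, from 7.64 to 8.93 (8.14) at 1 dpn, from 5.78 to 7.90 (7.15) at 28 dpn and from 7.01 to 8.26 (7.61) at 188 dpn, and it was above background on all 63 arrays. The mean was 7.08 ± 0.55 (SD, n = 15) at 28 dpn and 8.21 ± 0.37 (n = 16) at 1 dpn, a fall of 1.13 on the log2 scale or 2.19-fold (SE 0.16, limma adjusted p = 3.49e-07), with overlapping arrays. The difference at 1 dpn against 94 dpc was −0.05 (SE 0.12, adjusted p = 0.755), and it was 0.10 after quantile normalization. NR3C1 rose by 0.59 at 188 dpn against 28 dpn (SE 0.16, adjusted p = 0.00376) and remained below 94 dpc by 0.59 (adjusted p = 9.74e-06). The distance of 188 dpn to both early stages was not called after quantile normalization, with −0.02 against 94 dpc (adjusted p = 0.848) and −0.12 against 1 dpn (adjusted p = 0.342).

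The second probe-set of NR3C1 gave the fall at 28 dpn against 1 dpn and not the later rise, and was lowest at 188 dpn. Its medians were 7.64, 7.88, 7.45 and 7.25 in order of age, and the groups overlapped. It fell by 0.56 at 28 dpn against 1 dpn (SE 0.15, adjusted p = 0.00153), while at 188 dpn against 28 dpn it differed by −0.34 (SE 0.27, adjusted p = 0.335), opposite in sign to the first. Against 94 dpc it differed by −0.27 at 28 dpn (adjusted p = 0.158), where the first fell by 1.18. Across animals the 2 probe-sets went together at 1 dpn (r = 0.78, permutation p = 0.00025, adjusted p = 0.002; rho = 0.79; r = 0.68 without the 2 arrays farthest from the median) and not at 94 dpc (r = 0.30), 28 dpn (0.00) or 188 dpn (−0.22). At 94 dpc, 28 dpn and 188 dpn differences between single animals in NR3C1 are therefore not borne out by a second measurement. The other 2 probe-sets of NR3C1 exceeded background on at most 6 arrays of a stage and were never tested.

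Genes listed for the receptor chaperones, with related chaperones among them, moved both ways at 1 dpn. More of them fell than rose at 28 dpn and at 188 dpn. Of the other 20 genes listed for the receptor, its chaperones and co-chaperones, 15 were measured. At 1 dpn against 94 dpc 4 rose, 3 fell and 8 did not pass (median 0.04), beside 22.9% of all probe-sets rising and 34.0% falling. HSP90AB1, a cytosolic HSP90, fell by 1.40 (SE 0.09, adjusted p = 4.52e-15), and ST13, which binds HSP70, fell by 0.87 (SE 0.07, adjusted p = 1.24e-11). HSP90B1, the HSP90 of the endoplasmic reticulum and not of the cytosol, rose by 1.28 (SE 0.11, adjusted p = 1.02e-11). FKBP4, the co-chaperone that favours hormone binding, rose by 0.56 (adjusted p = 0.000336). Next, at 28 dpn against 1 dpn, 2 rose, 10 fell and 3 did not pass, with a median of −0.32, beside 28.8% and 42.9% of all. HSPA4, an HSP110 type chaperone, fell by 1.57 (SE 0.17, adjusted p = 1.72e-09), HSP90B1 by 1.10 and PPID, an immunophilin of the receptor complex, by 0.88. Last, at 188 dpn against 28 dpn, 1 rose, 8 fell and 6 did not pass, with a median of −0.37, beside 12.3% and 22.5% of all. HSP90B1 fell by 0.80 (SE 0.18, adjusted p = 0.000668), HSPA8, the constitutive HSP70, by 0.77 and DNAJA1, its partner, by 0.63.

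Coregulators, which link the bound receptor to the transcription machinery, fell or did not pass in most cases on the deposited scale. Of 17 listed, 7 were tested. At 1 dpn against 94 dpc none of them rose and 4 fell, beside 22.9% and 34.0% of all probe-sets. The coactivators NCOA2 and NCOA1 fell by 1.07 (SE 0.16, adjusted p = 1.37e-06) and 0.43, and NCOA4, listed as a coactivator by its name, by 1.04. None rose and 4 fell again at 28 dpn against 1 dpn, beside 28.8% and 42.9% of all, led by PPARGC1A, a coactivator of gluconeogenic genes, which fell by 1.70 (SE 0.25, adjusted p = 3.86e-07), with NCOA4 lower by 0.93 and MED14, a mediator subunit, by 0.73. SMARCA4, a chromatin remodeller, fell by 0.77 at 188 dpn against 28 dpn (SE 0.08, adjusted p = 2.19e-09) and NCOA1 by 0.35, while NCOA2 rose by 0.39, as 22.5% of all probe-sets fell and 12.3% rose. The medians were −0.29, −0.59 and −0.07 over the 3 periods. After quantile normalization 1, 2 and 2 rose and 3, 4 and 1 fell, so the lack of rises in the first 2 periods holds on the deposited scale only.

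HSD11B1, the activating enzyme, was higher after each of the first 2 steps in age and then level within its spread, measured by 1 probe-set. Its signal ranged from 10.77 to 12.49 with a median of 12.07 at 94 dpc, from 13.26 to 14.56 (13.98) at 1 dpn, from 14.80 to 15.47 (14.96) at 28 dpn and from 14.66 to 15.53 (15.14) at 188 dpn. Every array of 1 dpn lay above every array of 94 dpc, and every array of 28 dpn above every array of 1 dpn, which held for 1.85% and 4.95% of the probe-sets tested. The rise at 1 dpn against 94 dpc was 2.05 or 4.13-fold (SE 0.14, limma adjusted p = 1.31e-13), larger in size than 98.0% of the changes tested. It was 1.63 (adjusted p = 0.0557) with the 3′ minus 5′ difference of the added RNAs as a covariate. HSD11B1 rose by a further 1.05 or 2.07-fold at 28 dpn against 1 dpn (SE 0.11, adjusted p = 6.11e-10). The difference at 188 dpn against 28 dpn was 0.11 (SE 0.09, adjusted p = 0.34), and −0.07 after quantile normalization. At 188 dpn the level was thus 9.23-fold that of 94 dpc (log2 difference 3.21, SE 0.13, adjusted p = 6.93e-21).

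Red cell precursor RNA moved with the first of these steps. The mean of the 4 measured markers of these cells lay between 7.85 and 9.44 on the arrays of 1 dpn and between 11.40 and 12.57 at 94 dpc. All 4 fell, AHSP, the chaperone of alpha globin, by 4.67, beside 34.0% of all probe-sets tested. At 28 dpn against 1 dpn, where HSD11B1 rose again, 3 of the 3 tested rose, AHSP by 1.17, beside 28.8% of all. At 1 dpn against 94 dpc none of the 9 hepatocyte markers rose and 5 fell, TTR by 0.75, beside 22.9% and 34.0% of all. After quantile normalization 5 of them rose and 2 fell. The part of the cell mixture in the change of HSD11B1 or the other genes was not tested.

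Of the other 8 genes listed for hormone supply and clearance 3 were tested, and their courses differed from that of HSD11B1. HSD11B2 was measured but did not pass the filter on level, so no change of it was tested. Its mean was 5.70 at 94 dpc and 6.90 at 1 dpn, above background on 6 and 15 of 16 arrays. SERPINA6, the corticosteroid-binding globulin that carries cortisol in blood and is made in the liver, had medians of 13.12, 11.00, 12.56 and 14.24 in order of age. It fell by 2.17 at 1 dpn against 94 dpc (SE 0.21, adjusted p = 2.44e-10), rose by 1.31 at 28 dpn against 1 dpn (SE 0.27, adjusted p = 7.48e-05) and rose by 1.68 at 188 dpn against 28 dpn (SE 0.26, adjusted p = 5.63e-06). Its signal ranged from 10.05 to 12.36 at 1 dpn and from 12.50 to 14.30 at 94 dpc, a period in which 34.0% of all probe-sets fell. ABCB1, an export pump with steroids among its substrates, had the opposite sign in each period, with 1.54, −1.01 and −0.64 (adjusted p = 4.94e-10, 5.70e-07 and 0.000634). POR, which passes electrons to the cytochromes P450, rose by 1.24 at 1 dpn against 94 dpc (SE 0.11, adjusted p = 1.89e-11) and did not pass later.

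FKBP5 was highest at 1 dpn, and on its first probe-set it also differed most between animals there. Its first probe-set ranged from 6.46 to 7.95 with a median of 7.60 at 94 dpc, from 8.18 to 10.99 (9.09) at 1 dpn, from 7.16 to 8.61 (8.00) at 28 dpn and from 7.11 to 9.21 (7.93) at 188 dpn. All 16 arrays of 1 dpn lay above all 16 of 94 dpc, as 1.85% of all probe-sets tested did. The rise was 1.73 or 3.32-fold (SE 0.23, limma adjusted p = 8.27e-08). FKBP5 then fell by 1.13 or 2.19-fold at 28 dpn against 1 dpn (SE 0.22, adjusted p = 3.44e-05), and at 188 dpn against 28 dpn it differed by 0.09 (SE 0.19, adjusted p = 0.734). On this probe-set it was still above the fetal level by 0.60 at 28 dpn (adjusted p = 0.000886) and by 0.69 at 188 dpn (adjusted p = 0.00197).

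The second probe-set of FKBP5 gave the same peak, larger in size. It rose by 2.16 at 1 dpn against 94 dpc (SE 0.35, adjusted p = 3.46e-06) and fell by 2.55 at 28 dpn against 1 dpn (SE 0.32, adjusted p = 2.83e-08). At 1 dpn 15 of 16 arrays had it above background, at 94 dpc 8 of 16, at 28 dpn 3 of 15 and at 188 dpn 7 of 16, so its low levels are not exact. It did not pass the filter for a test against 94 dpc, with means of 5.28 at 28 dpn, 5.41 at 188 dpn and 5.67 at 94 dpc. At 1 dpn the first probe-set had an SD of 0.80, larger than that of 93.4% of the 12068 probe-sets above the array median there, and the highest animal was 6.98-fold above the lowest. The same animal, replicate 4, was highest on both probe-sets (10.99 and 10.54). Of the arrays of 1 dpn, that of replicate 4 had the lowest correlation to its stage (r = 0.91, median 0.93). The next highest animal had 10.29 on the first probe-set. Replicate 4 was also highest on the first 2 probe-sets of GLUL at 1 dpn (13.57 and 13.83). The 2 probe-sets went together at 1 dpn (r = 0.88, permutation p = 2.00e-05, adjusted p = 0.00032; rho = 0.84; r = 0.74 without the 2 arrays farthest from the median), so the spread between newborn piglets was measured in 2 ways.

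**Figure D2:**
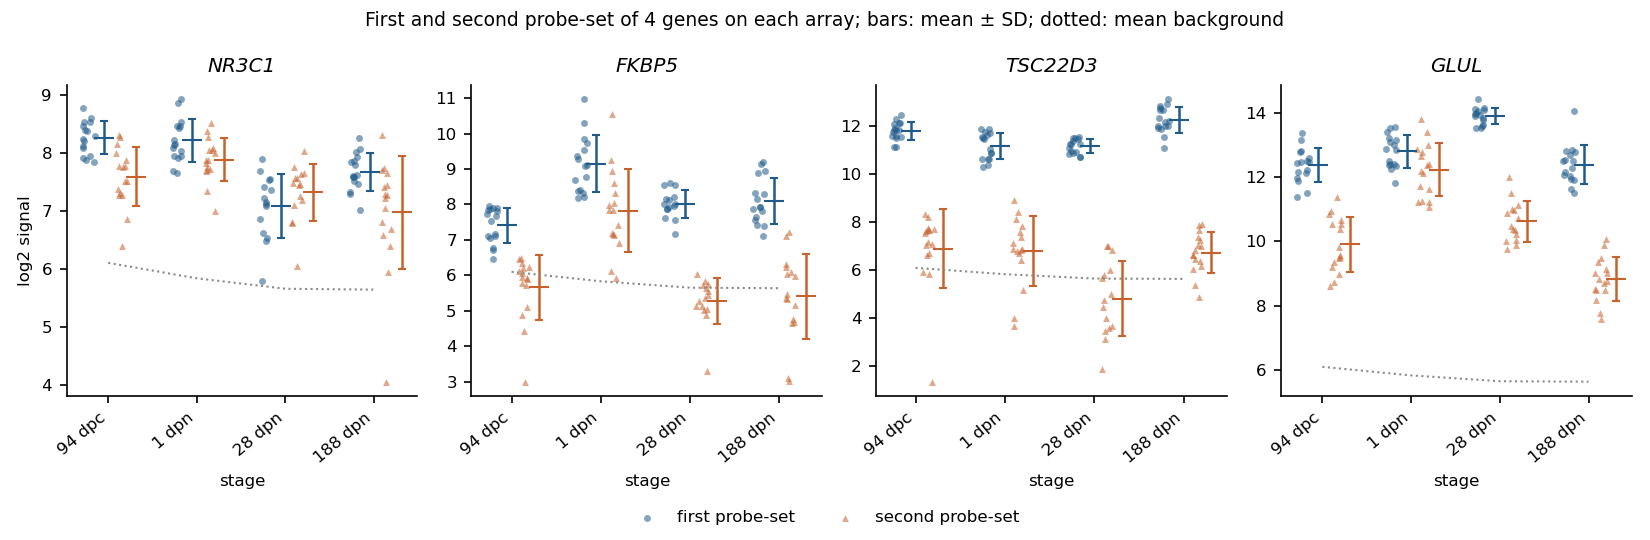
Log2 signal (y axis) of the first (circles) and second (triangles) probe-set of NR3C1, FKBP5, TSC22D3 and GLUL on every array, by stage (x axis), with mean ± SD and the mean background as a dotted line. The peak of FKBP5 at 1 dpn is in both probe-sets, while for GLUL the first is highest at 28 dpn (13.90) and the second at 1 dpn (12.24). Many values of the second probe-sets of FKBP5 and TSC22D3 lie at or under background.

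TSC22D3, the leucine zipper, was lower at 1 dpn than at 94 dpc, the step in which FKBP5 rose. Its first probe-set ranged from 11.12 to 12.46 with a median of 11.83 at 94 dpc, from 10.28 to 11.89 (11.25) at 1 dpn, from 10.72 to 11.56 (11.25) at 28 dpn and from 11.07 to 13.14 (12.18) at 188 dpn. It fell by 0.63 or 1.55-fold at 1 dpn against 94 dpc (SE 0.16, limma adjusted p = 0.00149). It differed at 28 dpn against 1 dpn by −0.01 (SE 0.16, adjusted p = 0.956) and by 0.21 (adjusted p = 0.234) when arrays were centred on their median. The rise at 188 dpn against 28 dpn was 1.10 or 2.15-fold (SE 0.16, adjusted p = 1.07e-06), larger in size than 96.5% of the changes tested, though the arrays of both stages overlapped. Its level at 188 dpn exceeded that of 94 dpc by 0.46 (adjusted p = 0.0104), and by 0.13 (adjusted p = 0.45) after quantile normalization.

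The second probe-set of TSC22D3 exceeded background on 13 of 16 arrays in each of the stages 94 dpc, 1 dpn and 188 dpn, and on 5 of 15 at 28 dpn. It rose by 1.91 at 188 dpn against 28 dpn (SE 0.42, adjusted p = 0.000533), as the first did. At 28 dpn it fell by 2.08 against 94 dpc (adjusted p = 0.00093), where the first fell by 0.64, and it did not pass the filter at 28 dpn against 1 dpn, with means of 4.82 at 28 dpn and 6.80 at 1 dpn. Against 94 dpc it differed at 1 dpn by −0.10 (SE 0.52, adjusted p = 0.886), so the fall after birth rests on the first probe-set. Lymphocytes also express TSC22D3. The mean of the 9 measured markers of T and NK cells had a median of 6.05, 5.59, 7.53 and 7.13 in order of age, with 6, 4, 9 and 9 of them above background on at least 50% of the arrays. The first 2 of these values lie under the mean background, and the part of these cells in the levels of TSC22D3 was not tested.

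GLUL, glutamine synthetase, gave opposite directions on its 2 probe-sets around 28 dpn. The first ranged from 11.39 to 13.38 with a median of 12.46 at 94 dpc, from 11.82 to 13.57 (12.86) at 1 dpn, from 13.53 to 14.44 (13.94) at 28 dpn and from 11.52 to 14.05 (12.39) at 188 dpn. The second ranged from 8.61 to 11.39 (9.72) at 94 dpc, from 11.09 to 13.83 (12.29) at 1 dpn, from 9.78 to 12.02 (10.48) at 28 dpn and from 7.59 to 10.09 (8.80) at 188 dpn. Both were above background on all arrays. At 28 dpn against 1 dpn the first rose by 1.10 (SE 0.15, limma adjusted p = 6.18e-08) and the second fell by 1.61 (SE 0.26, adjusted p = 1.50e-06), so no direction of the gene can be given for this period.

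The other 2 periods had 1 direction on both probe-sets. In the earlier of them, 1 dpn against 94 dpc, the first rose by 0.43 (SE 0.18, adjusted p = 0.0406), a call that was lost without the filter on level (adjusted p = 0.0708) and after quantile normalization (0.35, adjusted p = 0.121), and the second rose by 2.32 or 4.99-fold (SE 0.28, adjusted p = 2.27e-08). In the later, 188 dpn against 28 dpn, the first fell by 1.51 or 2.85-fold (SE 0.16, adjusted p = 1.19e-08) and the second by 1.79 or 3.46-fold (SE 0.23, adjusted p = 1.76e-07), larger in size than 98.6% and 99.2% of the changes tested. Every array of 28 dpn exceeded every array of 94 dpc on the first probe-set, as 8.87% of all did. On the second every array of 188 dpn was below every array of 1 dpn, as 8.96% of all were. The third probe-set was never tested, with 6 to 11 arrays above background in a stage.

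The 3′ minus 5′ difference of actin moved with the gap between the probe-sets of GLUL at 94 dpc and 28 dpn. Within a stage the signal of the first minus that of the second went with it across animals at 94 dpc (r = 0.73, permutation p = 0.00117, adjusted p = 0.00936; rho = 0.76) and at 28 dpn (r = 0.77, p = 0.00057, adjusted p = 0.00912; rho = 0.75). Without the 2 arrays farthest from the median of actin r was 0.47 (p = 0.0892) at 94 dpc and 0.60 (p = 0.0284) at 28 dpn. At 1 dpn r was 0.44 (permutation, adjusted p = 0.177; rho = 0.01), and −0.10 without 2 arrays. At 188 dpn r was 0.55 (adjusted p = 0.0906; rho = 0.65), and 0.45 without 2 arrays. The gap of TSC22D3 at 28 dpn (r = 0.68, adjusted p = 0.024) and that of NR3C1 at 188 dpn (r = 0.63, adjusted p = 0.021) went with it as well. By rank neither passed (rho = 0.59 and 0.58, permutation, adjusted p = 0.0721 for both). The adjustment covers 16 relations, 4 genes at 4 stages, chosen after the values were seen. The part of labelling or RNA quality in the changes of these genes was not tested. The covariate fits given above cannot tell it apart from age, since those covariates nearly follow stage.

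Of 13 other genes of glutamine and ammonia, 5 were tested in the first 2 periods and 6 in the third. OAT, which leads ornithine into glutamate, rose by 1.15 at 1 dpn against 94 dpc (SE 0.27, adjusted p = 0.000634) and by 1.56 at 188 dpn against 28 dpn (SE 0.22, adjusted p = 8.53e-07). CPS1, the first enzyme of the urea cycle, rose by 0.52 at 1 dpn, fell by 0.47 at 28 dpn and rose by 0.52 at 188 dpn, each against the stage before. ASNS, which uses glutamine to make asparagine, fell by 3.88 at 28 dpn against 1 dpn (SE 0.19, adjusted p = 1.15e-17) and by a further 1.28 at 188 dpn. RHBG, an ammonium transporter, rose by 1.90 at 28 dpn against 1 dpn (SE 0.35, adjusted p = 1.72e-05). SLC1A2, a glutamate transporter, rose by 1.11 at 188 dpn against 28 dpn (SE 0.33, adjusted p = 0.00783), above background on 16 of 16 arrays at 188 dpn and 12 of 15 at 28 dpn.

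**Figure D3:**
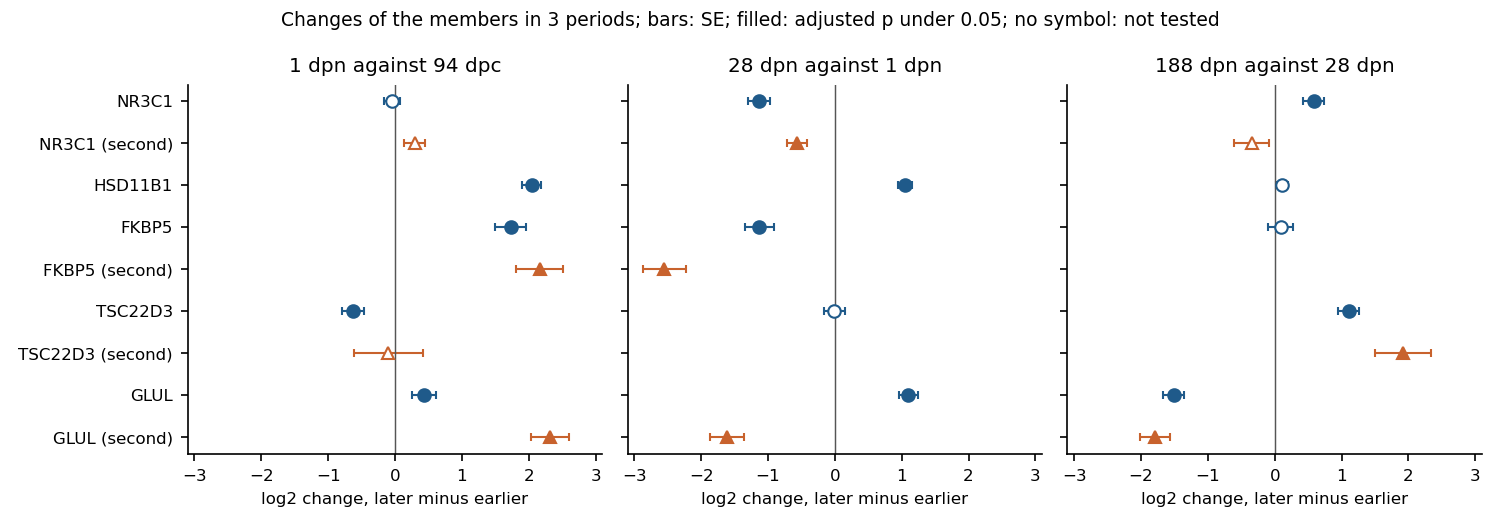
Log2 change (x axis), later minus earlier stage, with its SE, for the first (circles) and second (triangles) probe-set of the 5 genes (y axis) in 3 periods, filled where the adjusted p was under 0.05. Probe-sets that were not tested have no symbol. The probe-sets of GLUL stand on opposite sides of 0 at 28 dpn against 1 dpn (1.10 and −1.61), and those of NR3C1 at 188 dpn against 28 dpn (0.59 and −0.34).

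Other genes known as glucocorticoid targets moved both ways at 1 dpn and at 28 dpn, and those called at 188 dpn were all rises on the deposited scale. Of 38 listed 25 were tested, most of which insulin, glucagon, fasting or inflammation are also known to regulate. At 1 dpn against 94 dpc 8 rose, 10 fell and 7 did not pass, with a median of −0.15 beside −0.10 for all probe-sets, of which 22.9% rose and 34.0% fell. After quantile normalization 9 rose and 7 fell. In the next period 9 rose, 7 fell and 9 did not pass, with a median of 0.19 beside −0.14 for all, of which 28.8% rose and 42.9% fell. The last period, 188 dpn against 28 dpn, had 13 rises, no fall and 12 that did not pass, with a median of 0.48 beside −0.07 for all probe-sets, of which 12.3% rose and 22.5% fell. At an unadjusted p under 0.05 limma gave 0 falls as well, and after quantile normalization 15 rose and 2 fell. TSC22D3 rose in this period and FKBP5 did not pass.

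Around birth the largest changes of the list were rises from low signals. SULT1E1, which sulfates oestrogens, rose by 5.45 at 1 dpn against 94 dpc (SE 0.54, adjusted p = 3.10e-10), above background on 16 of 16 arrays at 1 dpn and 8 of 16 at 94 dpc. ANGPTL4, an inhibitor of lipoprotein lipase, rose by 4.92 (SE 0.47, adjusted p = 1.18e-10), above background on 4 of 16 arrays at 94 dpc. SDS, which breaks down serine, rose by 3.40 (SE 0.72, adjusted p = 0.000147), above background on 12 of 16 arrays at 1 dpn and 2 of 16 at 94 dpc, so the sizes of these 3 rises are not exact. Among fuel genes PCK1, the key enzyme of gluconeogenesis, rose by 0.93, 0.83 and 0.53 in the 3 periods (adjusted p = 0.00759, 6.48e-06 and 0.000358). TAT, which breaks down tyrosine, fell by 0.69 and 0.63 and then rose by 0.99 (adjusted p = 0.0396, 0.0228 and 0.000108), the first not called after quantile normalization (−0.58, adjusted p = 0.067).

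SULT1E1 fell by 1.55 at 28 dpn against 1 dpn (SE 0.19, adjusted p = 1.14e-08), while NFKBIA, the inhibitor of NF-kappa B, rose by 1.53 (SE 0.14, adjusted p = 2.17e-11) and CEBPD, a transcription factor of the acute phase, by 1.42 (SE 0.16, adjusted p = 4.22e-09). Macrophage markers moved with this period: 4 of 7 rose, C1QC by 1.97, and none fell, beside 28.8% and 42.9% of all probe-sets. All 7 fell at 188 dpn against 28 dpn, as 22.5% of all did, while LPIN1, a phosphatase of lipid synthesis, rose by 3.20 (SE 0.23, adjusted p = 4.18e-12), SDS by 1.85 and ANGPTL4 by 1.37 (SE 0.15, adjusted p = 1.10e-08). PER1, a clock gene with receptor binding sites, rose by 1.31 (SE 0.12, adjusted p = 6.17e-10), KLF9 by 0.61 and DUSP1 by 0.56, and SGK1 differed by 0.08 (adjusted p = 0.765). The hour of sampling was not used here, and its part in the change of PER1 was not tested.

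**Figure D4:**
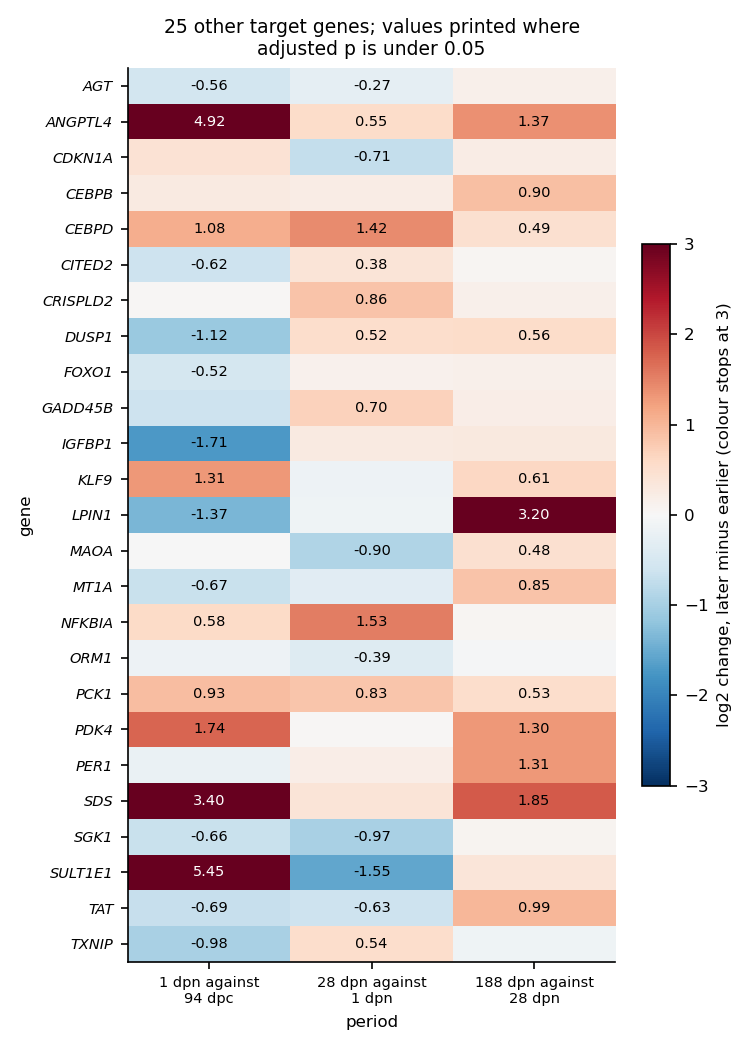
Log2 change, later minus earlier stage, as colour (red higher, blue lower at the later stage) for 25 other target genes (y axis) in 3 periods (x axis), with the value printed where the adjusted p was under 0.05. At 188 dpn against 28 dpn all 13 printed values are positive, up to 3.20 for LPIN1, while the other 2 periods hold both signs.

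Across animals of 1 stage the level of the receptor went with none of the other 4 genes. The 16 relations, each over 15 or 16 animals, had r between −0.48 and 0.36. The strongest was with GLUL at 28 dpn (r = −0.48, permutation p = 0.072, adjusted p = 0.535; rho = −0.44; r = −0.57 without the 2 arrays farthest from the median of NR3C1). The next was with HSD11B1 at 188 dpn (r = 0.36, permutation p = 0.174, adjusted p = 0.695; rho = 0.51, p = 0.0456). With FKBP5 r was 0.24, 0.02, −0.31 and 0.11 in order of age, and with TSC22D3 −0.26, 0.02, −0.14 and −0.20. At 1 dpn, where both NR3C1 probe-sets and both FKBP5 probe-sets went together, r was 0.02. Adjustment was over all 40 relations of the 10 gene pairs at 4 stages, of which none passed and 4 had an unadjusted p under 0.05. A relation weaker than the spread of 15 or 16 animals can show was not detectable here.

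**Figure D5:**
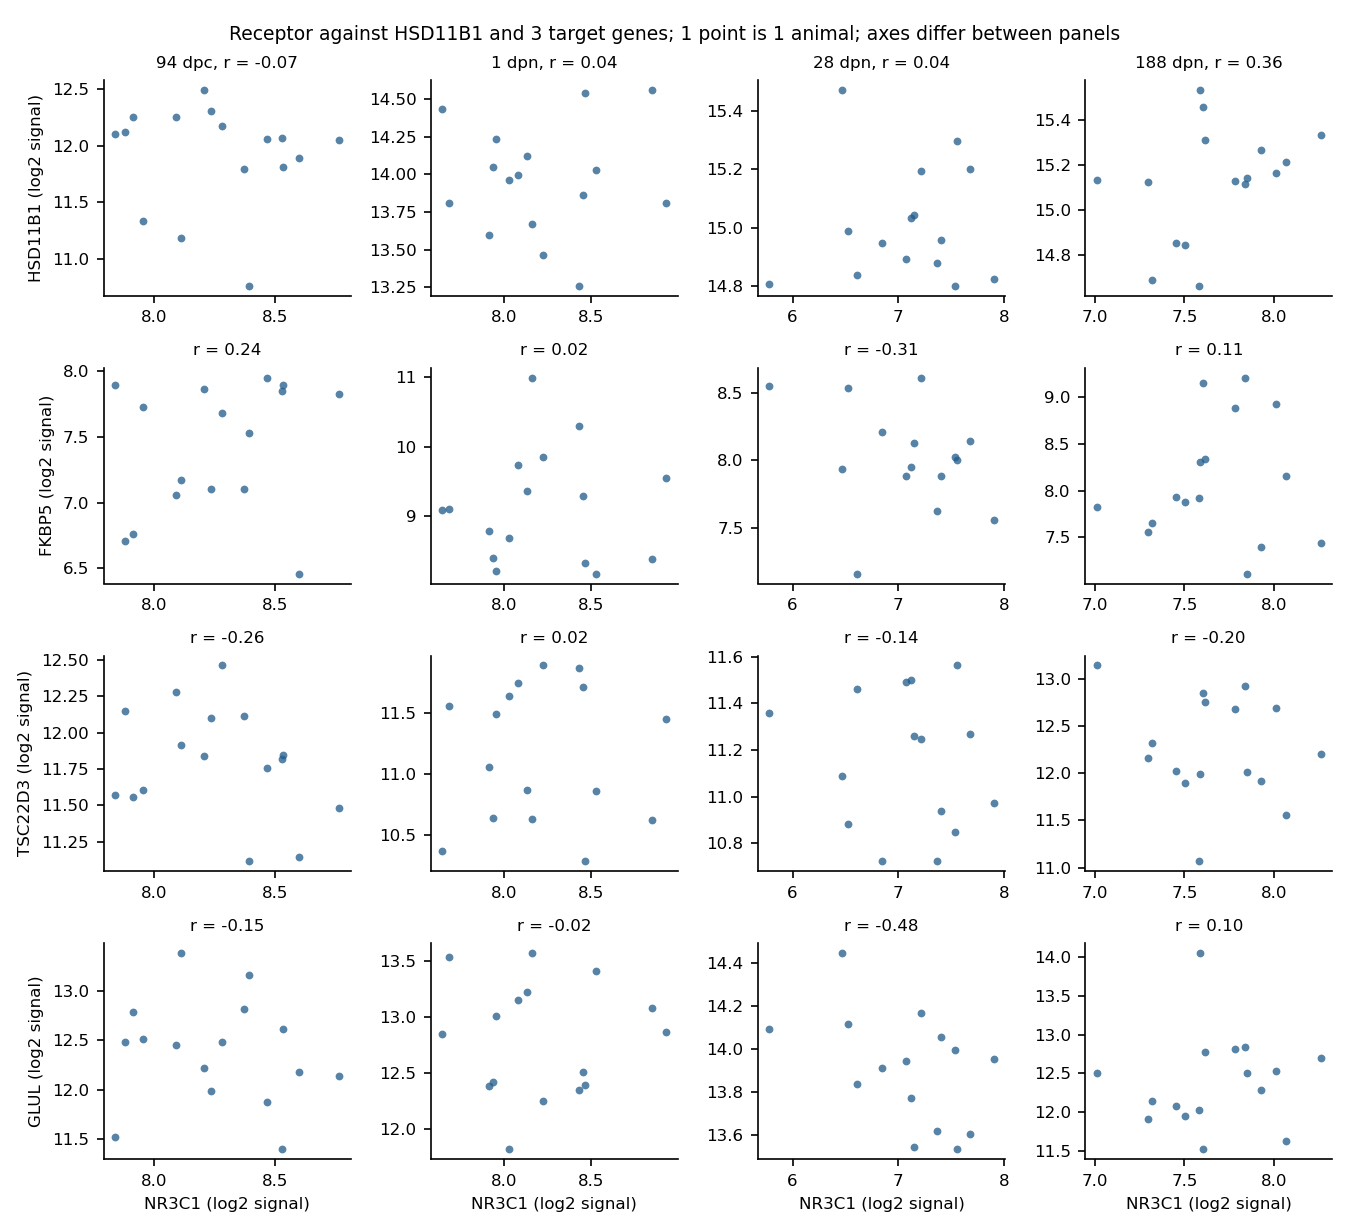
Log2 signal of HSD11B1, FKBP5, TSC22D3 and GLUL (y axes, by row) against that of NR3C1 (x axes) in single animals, by stage (columns), first probe-sets, with Pearson's r above each panel. No panel shows a clear slope, and r lies between −0.48 and 0.36.

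HSD11B1 took part in 3 of those 4 relations, which did not pass after adjustment. At 1 dpn its r with FKBP5 was negative (r = −0.65, permutation p = 0.00571, adjusted p = 0.122; rho = −0.69) and so was that with TSC22D3 (r = −0.66, p = 0.00611, adjusted p = 0.122; rho = −0.66). Without the 2 arrays farthest from the median of HSD11B1 r was −0.54 (p = 0.0457) and −0.56 (p = 0.0382). At 94 dpc r with GLUL was negative (r = −0.61, permutation p = 0.0129, adjusted p = 0.172; rho = −0.48), and −0.22 without 2 arrays. The fourth was that of FKBP5 and TSC22D3 at 188 dpn (r = 0.50, permutation p = 0.0478, adjusted p = 0.478; rho = 0.43; r = 0.32 without 2 arrays), which had r = 0.32 at 1 dpn (adjusted p = 0.775).

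The 25 other target genes were set against the receptor and against FKBP5 in the same way, 100 relations each, an addition made after the data were seen. With NR3C1 none of 100 passed (r between −0.56 and 0.59, 4 with an unadjusted p under 0.05). The second probe-set of NR3C1 passed with ORM1, an acute phase protein, at 188 dpn (r = −0.71, permutation p = 0.00024, adjusted p = 0.024; rho = −0.89; r = −0.74 without 2 arrays), where the first probe-set had r = 0.09. Against FKBP5 6 passed, 5 of them at 1 dpn. The median r over the 25 genes was −0.01, 0.49, −0.05 and 0.35 in order of age, and over all 5499 genes −0.03, −0.05, −0.04 and 0.04. At 1 dpn the 5 had r of at least 0.699, a cut that follows their own values, so that they reach it is no test. Of all 5499 genes 116 (2.11%) reached this cut, the 5 included. At 28 dpn 1 of the 25 reached it and 3.04% of all genes. These genes share arrays and animals, and the difference between stages was not tested.

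The 5 genes were PER1, SGK1, KLF9, DUSP1 and SDS. PER1 had the strongest relation to FKBP5 at 1 dpn (r = 0.82, permutation p = 0.0001, adjusted p = 0.01; rho = 0.75, adjusted p = 0.07), and r was 0.79 (p = 0.00149) without the 2 arrays farthest from the median of FKBP5. SGK1, a kinase of salt transport, had r = 0.76 (adjusted p = 0.038; rho = 0.67; r = 0.51 and p = 0.06 without 2 arrays). KLF9, a transcription factor, had r = 0.70 (adjusted p = 0.0492; rho = 0.64; r = 0.53 and p = 0.0479 without 2 arrays), and DUSP1, a phosphatase of MAP kinases, r = 0.70 (adjusted p = 0.0492; rho = 0.69; r = 0.47 and p = 0.0897 without 2 arrays). SDS had r = 0.71 (adjusted p = 0.0492; rho = 0.46; r = 0.31 and p = 0.283 without 2 arrays). The relations of SGK1, KLF9, DUSP1 and SDS thus rest in part on the 2 most extreme arrays. With the second probe-set of FKBP5 DUSP1, PER1, SDS and SGK1 passed again, together with TAT (r = 0.81, adjusted p = 0.007; r = 0.67 without 2 arrays). After quantile normalization PER1 and SGK1 remained. TXNIP, which restrains glucose uptake, had r = 0.68 with the first probe-set at 188 dpn (permutation, adjusted p = 0.0547) and 0.70 with the second (adjusted p = 0.0418). The sixth relation was with PDK4, the kinase that shuts down pyruvate dehydrogenase, at 28 dpn (r = 0.71, permutation p = 0.00295, adjusted p = 0.0492; rho = 0.76; r = 0.67 without 2 arrays), and with the second probe-set it was −0.22.

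The genes most like each of the 5 across animals were sought over the deviations of all 63 arrays from their stage means, among 5499 other genes, as a description. FKBP5 was most like PPAT, the first enzyme of purine synthesis (r = 0.65), RORA, a nuclear receptor of the clock (0.64), and CD46, a complement regulator (0.59). TSC22D3 was most like SLC37A4, the carrier of glucose 6-phosphate into the endoplasmic reticulum (r = 0.63), SORD, sorbitol dehydrogenase (0.55), and COX6A1, a subunit of cytochrome oxidase (0.51). After quantile normalization SORD was 15th and COX6A1 28th. HSD11B1 was most like TMBIM6, a membrane protein of the endoplasmic reticulum (r = 0.70), VAMP8, a protein of membrane fusion (0.69), and SPP2, a secreted phosphoprotein (0.68). After quantile normalization TMBIM6 was 60th and SPP2 37th for HSD11B1. GLUL was most like H3F3A, a histone (r = 0.55), PAQR8, a progestin receptor (0.49), and DST, dystonin (0.49). NR3C1 had the weakest likeness, with LOC396795 (r = 0.45), LRTM2 (0.44) and S100B, a calcium-binding protein (0.42). Between the 5 genes themselves the highest r was 0.29, for FKBP5 and TSC22D3. All these values share array and depth of signal, and the ranks carry no test.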

How the data were processed

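The authors deposited log2 signals of 24123 probe-sets on 63 arrays. The record names GCOS 1.1.1, and the values behave as MAS5-type signals. The authors scaled each array to a mean of about 500 without the top and bottom 2%, and signals under 1 stand at 0. No normalization between arrays follows, so array-wide shifts stay in the changes. The comparisons of the study used GCRMA values and a mixed model that allowed for sex and dam, neither of which is in these files. Depth does not apply to arrays, and the number of arrays limits the precision.

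Symbols came from the platform annotation, updated through Entrez identifiers. The 188 controls were left out. Pairs of stages were fitted with limma 3.58.1 in R 4.3.3 (lmFit, eBayes, two-sided) without covariates. Correlations used 100000 permutations, two-sided. The members and lists were chosen with earlier results of these data known. All probe-sets of the 5 genes, the 3 largest called changes of each list and period, and the 3 most alike genes are named. FKBP4, HSD11B2, PCK1, TAT, PER1, KLF9, DUSP1, SGK1, ORM1, PDK4 and TXNIP, and the cell markers given with values, were added after their values were seen. The fits and correlations were tested on simulated data. Alternatives were other filters, scalings, variance models, covariates and probe-sets.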

Additional observations from a re-analysis of the deposited data

How the results depend on the processing

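The number of calls among the 5 genes at 1 dpn against 94 dpc was 0 in place of 4 with the 3′ minus 5′ difference of the added RNAs as a covariate. There HSD11B1 changed by 1.63 (adjusted p = 0.0557), FKBP5 by 2.40 (0.0741), TSC22D3 by −0.44 (0.753), GLUL by 0.68 (0.631) and NR3C1 by 0.26. In this period NR3C1 also turned to 0.10 after quantile normalization, 0.059 after centring on the median and 0.30 on the second probe-set. TSC22D3 lost its call on the mean of its probe-sets (−0.36) and on the second (−0.10), and GLUL without a filter (0.43), after quantile normalization (0.35) and at an adjusted p under 0.01 (0.43).

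At 28 dpn against 1 dpn the covariate of actin, added after the data were seen, left 1 call in place of 4, with −0.39 for NR3C1, −1.15 for FKBP5 and 0.10 for GLUL. On the mean of the probe-sets GLUL changed by −0.29 and TSC22D3 by −0.996 (adjusted p = 0.00408), and the second probe-set of GLUL gave −1.61. TSC22D3 turned to 0.21 after centring, 0.044 with arrayWeights, 0.073 with the covariate of the added RNAs and 0.027 with that of actin. At 188 dpn against 28 dpn the second probe-set of NR3C1 gave −0.34, HSD11B1 −0.074 after quantile normalization and FKBP5 −0.17 with the covariate of actin.

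Counts of calls at 28 dpn against 94 dpc were 3 with a filter at the 75th percentile, 3 on the mean of the probe-sets and 2 with the covariate of the added RNAs, in place of 5. At 188 dpn against 94 dpc these settings and quantile normalization left 2 in place of 4, and at 188 dpn against 1 dpn the covariate of actin left 2 in place of 4. GLUL at 188 dpn against 94 dpc (0.02) turned to −0.38 after quantile normalization, −0.71 on the mean of its probe-sets, −0.61 and −0.91 with the covariates of the added RNAs and actin and −1.08 on the second probe-set. The second probe-set of TSC22D3 gave −0.17 there and −0.068 at 188 dpn against 1 dpn. NR3C1 on the mean of its probe-sets was not tested, since that mean did not pass the filter. The causes were not tested. Where a covariate overlaps little or not at all between 2 stages, its fit cannot tell labelling apart from age.

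Relations of the receptor with the other 4 genes stayed unpassed under all 124 alternatives run (lowest adjusted p = 0.319), and 30 of these had the other sign. The share of rises among calls moved by over 10 percentage points with the scaling: at 188 dpn against 28 dpn 1526 rose and 2789 fell as deposited, and 1988 rose and 2212 fell after quantile normalization. With a filter at the 75th percentile, which tests fewer probe-sets, 4472 and 5321 probe-sets were called in the first 2 periods, and on the mean of the probe-sets of each gene 2805, 3536 and 1950 in the 3 periods. At 188 dpn against 1 dpn the covariate of actin left 4831 calls in place of 9758. The actin differences of these stages did not overlap (3.39 to 4.88 and 0.75 to 3.16), so that fit cannot tell labelling apart from age. No analysis paired across stages was possible, because each animal gave 1 array at 1 stage. Mother and sib pair are in no label, so these could not be used for pairing either.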
